A study of Mus musculus with 7 samples.

Results

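The genes described here are 9 genes of the megakaryocyte and platelet lineage, *Ppbp*, *Pf4*, *Itga2b*, *Gp1ba*, *Gp1bb*, *Gp5*, *Gp9*, *Gp6* and *Treml1*, followed through RNA-Seq of mouse knee tissue after joint surgery. They are the 9 rows, of 55401 in the gene table, whose gene name is exactly one of these symbols. All 7 samples came from male C57BL/6J mice whose right knee underwent destabilization of the medial meniscus (DMM), a surgical model of posttraumatic osteoarthritis, at 10 weeks of age, and tissue was taken 2 weeks later. By their labels 4 samples were WT and 3 were *Trpc1*-/-, whereas the study's methods give the numbers the other way around, and the labels were used. The *Trpc1*-/- mice carried the Trpc1tm1Lbi allele, in which the calcium channel gene *Trpc1* lacks an exon, leaving a premature stop codon, in all cells and not in one cell type, and WT mice came from the same colony. The study's methods state that each sample pooled 2 to 3 mouse knees, whereas each sample's name carries a single mouse number. No sham-operated sample is among the 7, so every value is from an operated joint. The comparison asked whether these genes differed between genotypes at this early time after DMM.

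Megakaryocytes are large, polyploid cells of the bone marrow that differentiate under thrombopoietin and the transcription factors GATA1, FLI1 and NFE2, and that shed platelets into the blood through long cytoplasmic extensions called proplatelets. Platelets have no nucleus and carry RNA made in the megakaryocyte, so transcripts of these genes can come from either source. On the platelet surface the GPIb-IX-V complex catches von Willebrand factor, GPVI binds collagen, and integrin αIIbβ3 binds fibrinogen and joins platelets together, while α-granules release chemokines and adhesion proteins. The labels name cartilage, and the study's methods also list subchondral bone, a tissue that encloses marrow. In such bulk tissue, fewer cells of a type and less RNA per cell cannot be told apart.

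The 7 samples held 52142451 to 118254070 estimated counts each, and 3 counts were worth 0.0254 to 0.0575 CPM by each sample's total. The CPM given from here on are further scaled by the TMM factors of edgeR. *Trpc1* was at 4.33 to 4.83 CPM in WT and 3.04 to 3.79 CPM in *Trpc1*-/- samples (log2 fold change −0.44, SE 0.13, adjusted P = 0.407 by edgeR's quasi-likelihood test). These counts cover the whole gene and not the deleted exon alone. The groups did not overlap, and the direction went with the labels. The 8 chondrocyte markers were all measured, at a summed 5402 to 5682 CPM in WT and 3071 to 5831 CPM in *Trpc1*-/- samples. WT replicate 1 stood apart: it was the shallowest sample, 19.6% of its counts fell on *mt-Rnr2*, a mitochondrial ribosomal RNA gene, against 12.3% to 15.4% in the others, and its mean correlation with the other samples over tested genes was 0.947 against 0.973 to 0.980. The log2 fold changes of the 9 genes, of the other genes named and the medians of the pathway lists are therefore also given without it.

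The 9 genes lie on 6 chromosomes (GRCm38, GENCODE M21). *Ppbp* (chromosome 5, 90768518 to 90770063, plus strand) and *Pf4* (chromosome 5, 90772435 to 90773383, plus strand) are neighbors 2.37 kb apart, each with 3 coding exons. *Itga2b* lies on chromosome 11 (102453297 to 102470122, minus strand) and has 30 coding exons. The subunits of the GPIb-IX-V complex are scattered: *Gp1ba* on chromosome 11 (70639122 to 70642036, plus strand), *Gp1bb* and *Gp5* on chromosome 16 (18620317 to 18622403 and 30307685 to 30310779, both minus strand) and *Gp9* on chromosome 6 (87778072 to 87779768, plus strand). All 4 have their coding sequence in 1 exon. *Gp6* lies on chromosome 7 (4363965 to 4397744, minus strand) and *Treml1* on chromosome 17 (48359916 to 48367176, plus strand), with 8 and 6 coding exons.

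Shown here are the 250 bases before the RefSeq start (GRCm38.p6, gene strand, 5′ to 3′) of 3 genes whose products sit in one receptor complex but whose levels, as described later, did not all vary together: *Gp1ba* (chr11:70638872-70639121, plus strand), *Gp5* (chr16:30310782-30311031, minus strand) and *Gp9* (chr6:87777820-87778069, plus strand). Capitals mark the letters of a GATA motif (AGATAA or TGATAA) or of an ETS motif (AGGAAG), the letters bound by the families of GATA1 and FLI1, on either strand.
Gp1ba: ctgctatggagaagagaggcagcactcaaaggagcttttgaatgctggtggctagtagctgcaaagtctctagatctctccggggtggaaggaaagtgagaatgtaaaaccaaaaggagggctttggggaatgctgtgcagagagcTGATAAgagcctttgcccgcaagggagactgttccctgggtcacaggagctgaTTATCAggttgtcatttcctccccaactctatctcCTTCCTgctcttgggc
Gp5: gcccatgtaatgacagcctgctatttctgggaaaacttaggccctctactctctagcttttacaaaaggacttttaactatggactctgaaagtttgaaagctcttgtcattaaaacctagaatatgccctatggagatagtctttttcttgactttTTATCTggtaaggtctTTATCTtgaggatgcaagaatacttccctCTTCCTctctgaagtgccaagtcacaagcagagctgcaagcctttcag
Gp9: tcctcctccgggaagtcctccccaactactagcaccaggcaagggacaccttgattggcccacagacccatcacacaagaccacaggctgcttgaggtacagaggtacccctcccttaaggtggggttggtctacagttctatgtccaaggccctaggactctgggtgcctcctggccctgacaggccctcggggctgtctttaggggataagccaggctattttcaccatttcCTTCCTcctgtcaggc
The *Gp1ba* window held GATA letters 104 and 51 bases before the start and ETS letters 16 bases before it. In *Gp5* the GATA letters lay 93 and 77 bases and the ETS letters 48 bases before the start. Unlike in the other genes, the bases checked after the *Gp5* RefSeq start were not found in its GENCODE M21 transcripts. Its distances therefore hold for the RefSeq start only. *Gp9* held only the ETS letters, 16 bases before its start as in *Gp1ba*. Across the 9 genes, all of which matched a RefSeq window, GATA letters occurred in 3 (*Gp1ba*, *Gp5* and *Gp6*) and ETS letters in 5 (*Pf4*, *Itga2b*, *Gp1ba*, *Gp5* and *Gp9*). Of all 32817 windows of this length, 16.6% held the GATA and 29.5% the ETS letters, and both together occurred in 2 of the 9 and in 4.72% of all windows. The NFE2 letters TGAGTCA were in none of the 9 windows and in 4.46% of all. Such matches are a description of letters and not of bound sites. The window of *Gp1bb* held none of these letters and lies within the annotated span of the gene *Septin5*.

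Levels of different genes were compared as FPKM, which is CPM divided by the gene's exon length in kilobases. The 2 chemokine genes were far above the rest. *Ppbp*, which encodes the precursor of the neutrophil attractant CXCL7, stood at 295 ± 77.7 FPKM (mean ± SD, n = 7) and exceeded 99.1% of 16415 tested genes with a known length. *Pf4*, which encodes platelet factor 4 (CXCL4), followed at 135 ± 28.4 FPKM and exceeded 98.4%. *Ppbp* was above *Pf4* in all 7 samples, and *Pf4* above every gene below it. Next came *Gp9* at 24.0 ± 4.52 FPKM and *Itga2b* at 23.7 ± 2.74 FPKM. By exon length these did not differ beyond their spread, since *Gp9* was the higher in 5 of 7 samples. Their order depended on the length used. Divided by the length of the longest transcript instead, *Itga2b* was above *Gp9* in all 7 samples. It was then at 29.6 FPKM or more, and *Gp9* at 28.2 FPKM or less. By that length 7 of the 9 genes kept their rank. *Treml1* stood at 17.1 ± 4.00 FPKM and was above *Gp5*, at 13.2 ± 2.21 FPKM, in 6 of 7 samples. The lowest were *Gp1bb* at 6.28 ± 0.897, *Gp1ba* at 5.58 ± 0.697 and *Gp6* at 4.76 ± 0.619 FPKM, and their order changed between samples. Even *Gp6* exceeded 55.0% of tested genes.

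**Figure D1:**
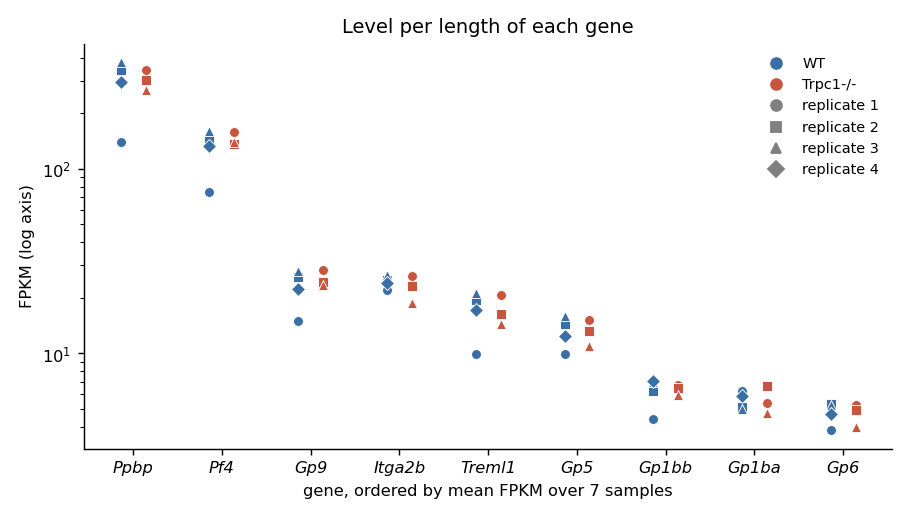
FPKM (log axis) of the 9 genes, with a point for each of the 7 samples by genotype, ordered by their mean. The *Ppbp* points lie above the *Pf4* points in every sample, and the *Gp9* and *Itga2b* points interleave.

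Both chemokine genes were lower in WT replicate 1 than in any other sample, and the genotypes overlapped. *Ppbp* was measured at 151, 371, 409 and 319 CPM in WT replicates 1 to 4 and at 371, 326 and 289.5 CPM in *Trpc1*-/- replicates 1 to 3. All 3 *Trpc1*-/- values fell within the WT range. The means were 312 ± 114 CPM in WT (n = 4) and 329 ± 40.8 CPM in *Trpc1*-/- (n = 3), a log2 fold change of 0.075 (SE 0.31, 95% interval −0.64 to 0.79, adjusted P = 0.936 by edgeR). *Pf4*, whose product binds heparin and other glycosaminoglycans, was at 54.0, 102.9, 115.1 and 95.3 CPM in WT and 113.5, 98.8 and 101.3 CPM in *Trpc1*-/- samples. Its log2 fold change was 0.19 (SE 0.23, interval −0.35 to 0.72, adjusted P = 0.772). Without WT replicate 1 the WT means were 366 ± 45.0 CPM for *Ppbp* and 104.4 ± 10.0 CPM for *Pf4*, and the log2 fold changes were −0.16 (SE 0.12) and −0.00085 (SE 0.087). The ratio of *Ppbp* to *Pf4* in FPKM stayed between 1.86 and 2.40 over the 7 samples.

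*Itga2b* encodes αIIb (CD41), the subunit of the fibrinogen receptor that marks the lineage, and it varied less. WT replicates held 119.8, 135.9, 144.3 and 131.4 CPM and *Trpc1*-/- replicates 143.8, 126.2 and 101.8 CPM. *Trpc1*-/- replicate 3 was the lowest of the 7 samples, and *Trpc1*-/- replicate 1 lay within 1 CPM of the highest WT value. The log2 fold change was −0.10 (SE 0.13, interval −0.40 to 0.20, adjusted P = 0.781), and −0.15 (SE 0.12) without WT replicate 1. Its partner *Itgb3*, which encodes the β3 chain that osteoclasts and other cells also use, was at 254 ± 17.9 CPM in WT and 244 ± 37.2 CPM in *Trpc1*-/- samples (log2 fold change −0.059, SE 0.13, adjusted P = 0.874, and −0.11 without WT replicate 1). The ratio of *Itgb3* to *Itga2b* in FPKM was 1.64 to 1.93 over the 7 samples.

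Within the GPIb-IX-V complex, *Gp1ba* went its own way. It encodes GPIbα, the chain that binds von Willebrand factor, and was at 17.0, 14.03, 13.6 and 15.99 CPM in WT and 14.6, 18.1 and 12.9 CPM in *Trpc1*-/- samples. WT replicate 1, the lowest sample for the other 3 subunits, was here the second highest. Group means were 15.2 (15.15) ± 1.61 and 15.2 ± 2.62 CPM, with a log2 fold change of 0.0057 (SE 0.13, interval −0.31 to 0.32, adjusted P = 0.990). Without WT replicate 1 it was 0.064 (SE 0.13). *Gp9*, which encodes the small GPIX chain needed for the complex to reach the surface, was at 13.2, 22.9, 24.7 and 19.8 CPM in WT and 24.8, 21.6 and 20.8 CPM in *Trpc1*-/- samples. The change was 0.15 on the log2 scale (SE 0.20, interval −0.31 to 0.61, adjusted P = 0.787), and −0.0062 (SE 0.10) without WT replicate 1. *Gp5*, which encodes GPV, a chain cleaved by thrombin, was at 21.9, 31.9, 35.2 and 27.2 CPM in WT and 33.3, 29.0 and 24.2 CPM in *Trpc1*-/- samples. It too overlapped between genotypes (log2 fold change −0.013, SE 0.17, interval −0.42 to 0.39, adjusted P = 0.981), with −0.13 (SE 0.13) when WT replicate 1 was left out. The ratio of *Gp9* to *Gp1ba* in FPKM was lowest in WT replicate 1, at 2.39, and reached 5.60 in another sample.

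*Gp1bb* encodes GPIbβ, which is joined to GPIbα by disulfide bonds. Its values were 9.27, 13.1, 14.6 and 14.7 CPM in WT and 14.1, 13.5 and 12.5 CPM in *Trpc1*-/- samples, with a log2 fold change of 0.044 (SE 0.16, interval −0.33 to 0.41, adjusted P = 0.927), and −0.084 (SE 0.078) without WT replicate 1. Again only WT replicate 1 lay below the other samples. The gene shares 1902 of its 2087 exonic bases (91.1%) with *Septin5*, a septin gene on the same strand that overlaps it, and 867 (41.5%) with *Gm49601*, so stranded reads cannot separate them and how the authors' pipeline divided the reads sets its level. *Septin5* was at 46.3 ± 5.35 CPM in WT and 42.2 ± 1.07 CPM in *Trpc1*-/- samples (log2 fold change −0.13, SE 0.10, adjusted P = 0.636, and −0.21 without WT replicate 1). The *Gp1bb* values are therefore uncertain.

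*Gp6* and *Treml1* completed the set. *Gp6*, the collagen receptor gene, was at 22.6, 31.6, 31.2 and 27.7 CPM in WT and 30.9, 29.0 and 23.7 CPM in *Trpc1*-/- samples. Its log2 fold change was −0.021 (SE 0.14, interval −0.35 to 0.30, adjusted P = 0.963), and −0.11 (SE 0.11) without WT replicate 1. GPVI signals through the Fc receptor γ chain, whose gene *Fcer1g* is also expressed by myeloid cells; it was at 69.4 ± 19.95 CPM in WT and 75.1 ± 4.78 CPM in *Trpc1*-/- samples (log2 fold change 0.11, and −0.080 without WT replicate 1). The ratio of *Fcer1g* to *Gp6* in FPKM ran from 11.8 to 22.6. *Treml1* encodes TLT-1, a receptor stored in α-granules and brought to the surface on activation, and was at 13.95, 27.2, 29.997 and 24.0 CPM in WT and 29.1, 23.1 and 20.2 CPM in *Trpc1*-/- samples. All 3 *Trpc1*-/- values again lay inside the WT range (log2 fold change 0.018, SE 0.25, interval −0.56 to 0.60, adjusted P = 0.983), and the change was −0.17 (SE 0.14) without WT replicate 1.

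**Figure D2:**
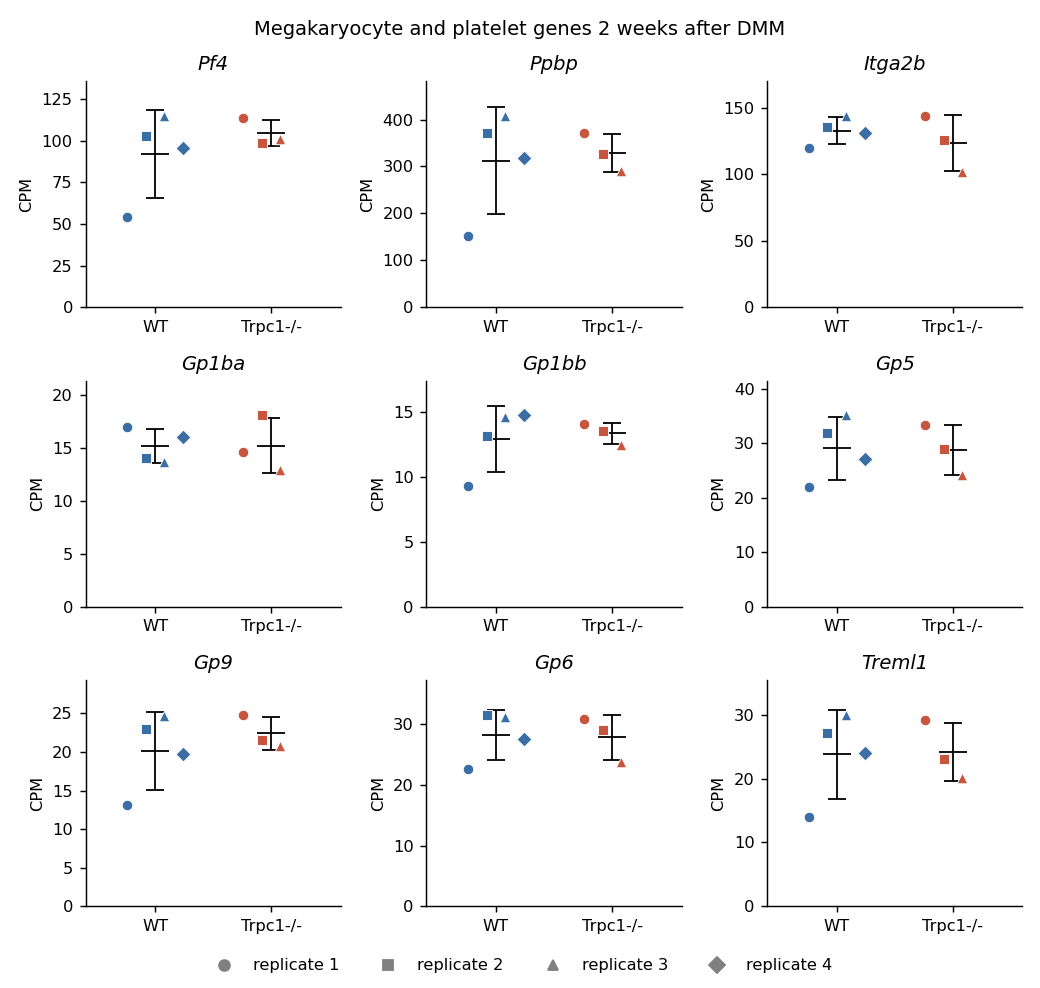
CPM of each of the 9 genes in the 4 WT and 3 *Trpc1*-/- samples, with a panel per gene, a point per sample and the group mean ± SD. WT replicate 1 is the lowest point in 7 panels, all but *Itga2b* and *Gp1ba*, and the genotypes overlap in all 9.

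Thus 0 of the 9 genes passed an adjusted P of 0.05 between genotypes by edgeR or by DESeq2, and 0 had an unadjusted P under 0.05 by edgeR (smallest 0.446). The shares over the 16429 tested genes were 0% by edgeR, 1.79% by DESeq2 (294 genes) and 10.0% at an unadjusted P under 0.05 (1643 genes). None of the 9 had groups that did not overlap, against 13.6% of tested genes (7.15% higher and 6.42% lower in *Trpc1*-/- samples). An exact permutation test of mean log2 CPM, two-sided over all 35 ways to divide the 7 samples 4 to 3, gave P of 0.486 to 1 and can give none below 0.0286. Of the 9 genes 6 had a log2 fold change above 0 (2 with scaling by library size alone), against 48.1% of tested genes, and their median was 0.018 against −0.0088. The lower ends of the 95% intervals were 0.644- to 0.808-fold of WT and the upper ends 1.15- to 1.72-fold, the widest being that of *Ppbp*. They hold for this fit alone, and fits given next placed some genes farther from WT. A P that misses the threshold does not show that the genotypes had equal levels.

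**Figure D3:**
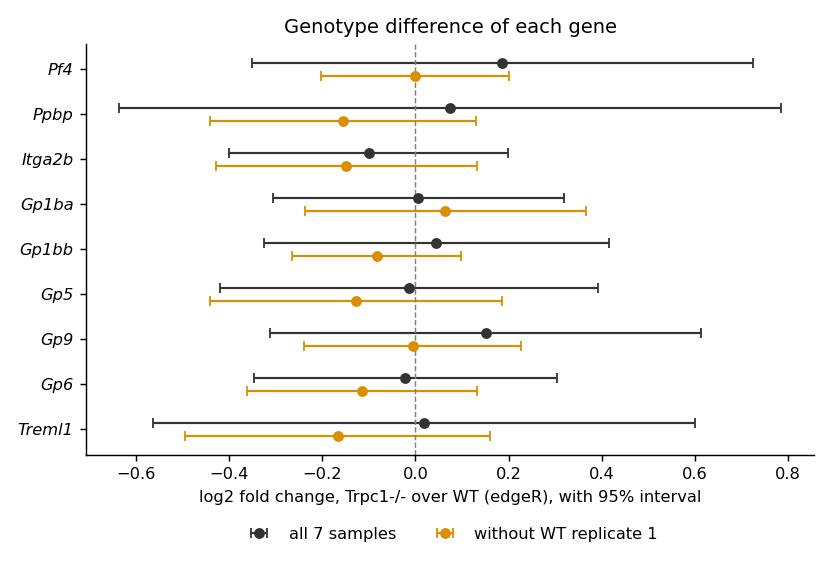
Log2 fold change of *Trpc1*-/- against WT for each of the 9 genes from the edgeR fit, with 95% intervals, for all 7 samples and without WT replicate 1. All intervals include 0, and for the 7 genes lowest in WT replicate 1 the values are lower and the intervals narrower without it.

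Without WT replicate 1 the direction rested on other samples. Then 1 of the 9 genes, *Gp1ba*, had a log2 fold change above 0 (0.064, SE 0.13), and the median was −0.11. Again 0 of 9 passed, with adjusted P of 0.554 to 0.997, while 52 of 16242 tested genes did (0.320%). The interval ends were then 0.710- to 0.868-fold at the lower and 1.07- to 1.29-fold at the upper side. Without *Trpc1*-/- replicate 3, by contrast, all 9 had a log2 fold change above 0. With only the samples whose mouse numbers lie in the 1300s, which leaves WT replicates 1 and 2, the values moved the other way: 7 of 9 log2 fold changes were above 0, the median was 0.22 and 0 passed. *Pf4* was then at 0.41 (SE 0.27), *Ppbp* at 0.33 (SE 0.37), *Gp9* at 0.31 (SE 0.24) and *Gp1bb* at 0.25 (SE 0.17). With number series as a covariate the median was 0.22, which is not a separate result. The samples of the 1700 series were all WT, so that genotype difference again rested on WT replicates 1 and 2.

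The genes differed in how much they varied among samples. Between the lowest and highest sample *Ppbp* varied 2.70-fold, *Treml1* 2.15-fold and *Pf4* 2.13-fold, whereas *Gp6*, *Gp1ba* and *Itga2b* varied 1.40- to 1.42-fold. Without WT replicate 1 the ranges of *Ppbp*, *Treml1* and *Pf4* were 1.41-, 1.49- and 1.21-fold. In WT replicate 1 the 7 genes lowest there stood at 41.3% (*Ppbp*) to 74.98% (*Gp6*) of the mean of the other WT samples, *Itga2b* at 87.3% and *Gp1ba* at 117%. Being lowest in that sample was common, with 38.0% of tested genes sharing it. The genes with the shortest exons were among the most reduced there, *Pf4* (721 bases) at 51.7% and *Gp9* (881 bases) at 58.6%. *Itga2b* (5454 bases) and *Gp6* (5900 bases) were the least reduced, and *Gp1ba* (2718 bases) was not reduced. Over all protein-coding tested genes, the median log2 difference of WT replicate 1 from the other WT samples was −0.31 in the shortest, −0.042 in the middle and 0.18 in the longest tertile by exon length. *Gp1ba* lies in the shortest tertile (up to 3348 bases), yet its log2 difference was 0.23. *Gp6* lies in the longest (from 5894 bases), yet its log2 difference was −0.41. What part length has in the values of the 9 genes was not tested.

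**Figure D4:**
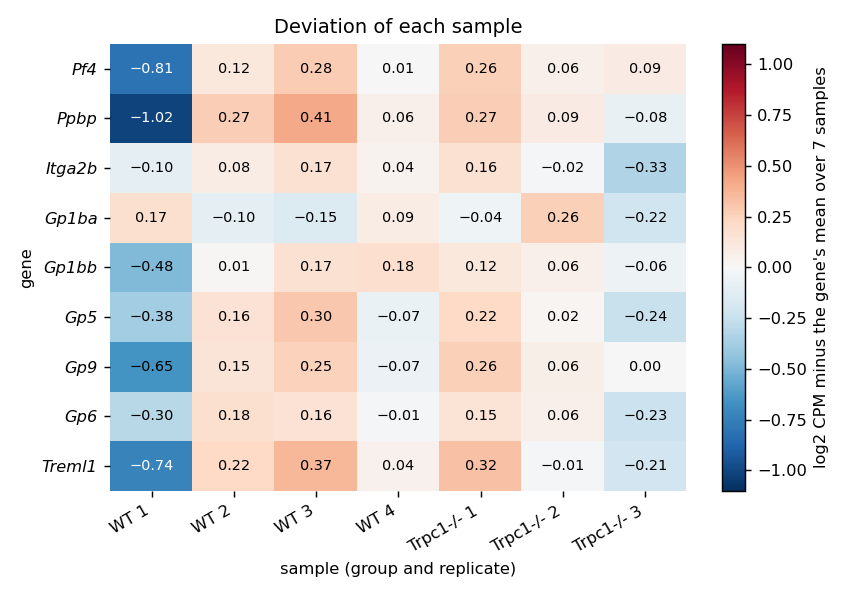
Heat map of the 9 genes (rows) in the 7 samples (columns), colored by log2 CPM minus the gene's mean over the samples. The WT replicate 1 column is below 0 for the genes other than *Gp1ba*, and *Trpc1*-/- replicate 3 is the lowest of the other samples for 7 genes.

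Apart from *Gp1ba*, the genes varied together over the 7 samples, though *Gp1bb* did so less without WT replicate 1. Among the 28 pairs of the other 8 genes, Pearson's r of log2 CPM over the 7 samples ran from 0.37 to 0.99 with a median of 0.88, the highest for *Pf4* and *Gp9*. Without WT replicate 1 the range was 0.20 to 0.98, the median was 0.81 and all 28 were above 0. The lowest were then *Gp1bb* with *Gp9* (0.20) and with *Pf4* (0.23), which were 0.89 and 0.92 over all 7 samples. The 8 pairs with *Gp1ba* ran from −0.53 to 0.070, and from −0.48 to 0.33 without that sample. These are descriptions over samples that share library depth and composition. Of 16420 other tested genes, those most like the mean standardized profile of the 9 were *Clec1b* (r = 0.997), which encodes the platelet receptor CLEC-2, then *Rab27b* (0.988), which encodes a GTPase of granule secretion, *Adk* (0.988), which encodes adenosine kinase, the immunoglobulin segment *Igkv10-94* (0.987) and *Lysmd4* (0.986). Without WT replicate 1 their r was 0.968, 0.955, 0.931, 0.948 and 0.967, which placed them at ranks 14, 34, 68, 42 and 15, so which genes come first depends on that sample.

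The summed level of the 9 genes was 423, 750, 817 and 675 CPM in WT and 775, 686 and 607 CPM in *Trpc1*-/- samples. WT replicate 1 was the lowest, and the *Trpc1*-/- samples lay among the other WT samples and just below them. *Ppbp* gave 35.7% of the sum in WT replicate 1 and 47.2% to 49.99% in the others.

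Other genes of the pathway were read from 6 lists of 59 genes, of which 58 were tested. By edgeR 0 of the 58 passed, 1 was higher and 2 were lower at an unadjusted P under 0.05, where 4.51% and 5.49% of all tested genes were, and 24 had a log2 fold change above 0 (16 by library size alone, and 10 without WT replicate 1). Without that sample 7 of the 58 had an unadjusted P under 0.05, where 16.9% of tested genes did, and 0 passed. Among 8 adhesion receptors and partners, 3 were above 0 (1 by library size alone), with a median of −0.067 and of −0.11 without WT replicate 1, and *Selp*, the gene of P-selectin, was at 18.1 ± 1.56 CPM in WT and 16.9 ± 1.62 CPM in *Trpc1*-/- samples (log2 fold change −0.10, and −0.16 without WT replicate 1). The 8 receptors for soluble agonists were split 4 to 4 (median 0.041, −0.025 by library size alone and −0.086 without WT replicate 1). Their extremes were the prostaglandin E receptor gene *Ptger3* at 0.10 (SE 0.11) and the adrenergic receptor gene *Adra2a* at −0.42 (SE 0.26, adjusted P = 0.583), which were 0.090 and −0.24 without WT replicate 1.

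All 10 genes listed for granule cargo and granule formation had a log2 fold change below 0 under each scaling, though none passed the test. Their median was −0.16, and −0.21 without WT replicate 1. Of all tested genes, 48.1% were above 0. The list leaves out *Pf4*, *Ppbp* and *Treml1*, whose products α-granules also hold. These were at 0.19, 0.075 and 0.018, and at −0.00085, −0.16 and −0.17 without WT replicate 1. *Vwf*, the von Willebrand factor gene, which endothelial cells also express, was at 137 ± 15.5 CPM in WT and 124 ± 20.2 CPM in *Trpc1*-/- samples (log2 fold change −0.15, adjusted P = 0.698, and −0.066 without WT replicate 1). Within the list, the value nearest 0 was that of *Vipas39*, a granule formation gene, at −0.027 (−0.090 without WT replicate 1). A summed 9 endothelial markers stood at 329 to 332 CPM in WT and 302 to 319 CPM in *Trpc1*-/- samples, and their part in the granule values was not tested. Of 12 signaling genes 5 were above 0, 3 by library size alone and 0 without WT replicate 1, and the median was −0.022 and −0.11 without that sample. *Ptgs1*, which encodes cyclooxygenase 1, was at 56.6 ± 3.63 CPM in WT and 48.2 ± 2.19 CPM in *Trpc1*-/- samples (log2 fold change −0.23, SE 0.075, adjusted P = 0.430, and −0.26 with adjusted P = 0.139 without WT replicate 1). *Rasgrp2*, the gene of a calcium-responsive activator of the GTPase RAP1, was at 109 ± 2.00 and 98.1 ± 0.517 CPM (log2 fold change −0.15, SE 0.065, adjusted P = 0.498, and −0.15 with adjusted P = 0.201 without WT replicate 1). Neither gene overlapped between genotypes, and the same held for *Vps33b*, an α-granule formation gene named after its values were seen (log2 fold change −0.17, and −0.10 without WT replicate 1). With *Tal1*, described next, these made 4 of the 58 pathway genes (6.90%), below the 13.6% of all tested genes.

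The 9 genes of the proplatelet cytoskeleton were split 5 to 4, or 2 to 7 by library size alone, and without WT replicate 1 all 9 were below 0 (median 0.033, and −0.049 without it). *Tubb1*, the β1-tubulin gene specific to the lineage, was at 66.5 ± 20.3 CPM in WT and 64.1 ± 13.6 CPM in *Trpc1*-/- samples (log2 fold change −0.053, adjusted P = 0.949, and −0.25 without WT replicate 1). Of 11 tested regulators 7 were above 0 (6 by library size alone), with a median of 0.10, of 0.032 by library size alone and of 0.043 without WT replicate 1. *Tal1*, a transcription factor gene of megakaryocytes and red cell precursors alike, was at 100 ± 5.13 CPM in WT and 126 ± 13.1 CPM in *Trpc1*-/- samples (log2 fold change 0.34, SE 0.093, and 0.31 without WT replicate 1). It did not pass by edgeR (adjusted P = 0.396) and did by DESeq2 (adjusted P = 0.0412), the only pathway gene to do so. *Gata1* and *Nfe2*, also shared with red cell precursors, were at 36.5 ± 6.74 and 113 ± 22.1 CPM in WT and 44.6 ± 7.22 and 128 ± 21.5 CPM in *Trpc1*-/- samples (adjusted P = 0.567 and 0.728). Their log2 fold changes were 0.29 and 0.18, and 0.17 and 0.043 without WT replicate 1.

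Levels of markers of other cells are set beside those of the 9 genes without a test of the difference. The mean log2 CPM of the 9 genes was 0.065 higher in *Trpc1*-/- than in WT samples, and 0.085 lower without WT replicate 1 (a difference of −0.085). For 15 erythroid markers the differences were 0.47 and 0.40. All 15 had a log2 fold change above 0, 0 passed by edgeR and 5 by DESeq2, and their summed level, 20262 to 37282 CPM in WT and 43031 to 58425 CPM in *Trpc1*-/- samples, did not overlap. *Tal1*, *Gata1* and *Nfe2* belong to that lineage too, and the part of erythroid RNA in their values was not tested. Neutrophil markers changed sign as the 9 genes did, from 0.24 to −0.10 without WT replicate 1, osteoclast markers went from 0.020 to −0.15, and markers of stem and progenitor cells stood at 0.019 and 0.036. Macrophage markers kept their sign, at 0.27 and 0.13, as did mast cell and basophil (0.53 and 0.21) and B-lineage markers (0.27 and 0.19). Only 3 of the 6 mast cell and basophil markers were tested. Their mean log2 CPM was 4.84, 4.08 and 4.26 in *Trpc1*-/- replicates 1 to 3, and 4.06 to 4.29 in WT replicates 2 to 4. Chondrocyte markers stood at −0.46 and −0.53, and osteoblast markers at −0.28 and −0.42. WT replicate 1 differed from the other WT samples by −1.36 on the log2 scale for neutrophil markers, and by −0.60 for the 9 genes. Macrophage markers differed there by −0.60 and osteoclast markers by −0.67. Skeletal muscle markers were highest in WT replicate 1, at a summed 998 CPM against 55.6 to 192 CPM in the other WT samples. *Trpc1*-/- samples held 336, 497 and 859 CPM of them, beside summed levels of the 9 genes of 775, 686 and 607 CPM. Their part in the low values of the 9 genes in that sample was not tested.

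**Figure D5:**
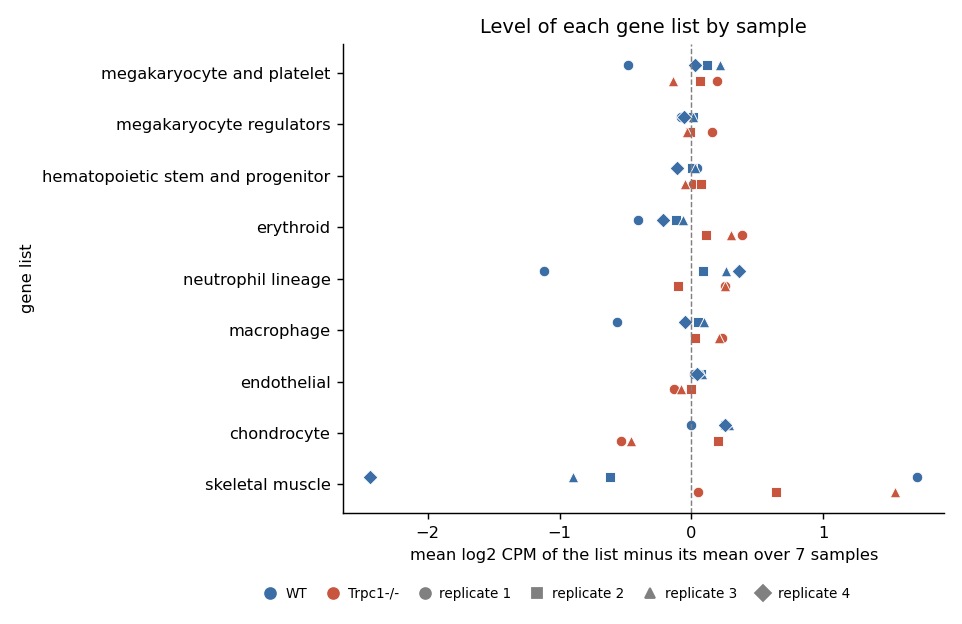
Mean log2 CPM of the 9 genes, of the megakaryocyte regulators and of 7 marker lists, minus each list's mean over the 7 samples, with a point per sample by genotype. The erythroid points of the *Trpc1*-/- samples lie above those of the WT samples, whereas the points of the 9 genes overlap.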

How the data were processed

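RNA was measured in 7 samples, 4 WT and 3 *Trpc1*-/-, grouped by their labels. The authors depleted ribosomal RNA, sequenced stranded paired-end libraries, trimmed reads with Cutadapt 2.5, aligned them to GRCm38 with HISAT2 2.1.0, and assembled coverage with StringTie 2.0.3. The authors deposited the estimated counts per gene that a StringTie script derives from coverage, in 1 table of 55401 rows. These were whole numbers, so rounding changed none, and they were not normalized. Samples held 52142451 to 118254070 counts, and 3 counts, the limit that a count of 0 allows for counting error, came to 0.0254 to 0.0575 CPM.

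Genes with CPM above 1 in at least 2 samples were kept (16429, all 9 members among them). Genotype was tested with edgeR 4.0.16 (quasi-likelihood, TMM, genotype as the only term) in R 4.3.3, with Benjamini-Hochberg adjustment over all tested genes. DESeq2, the study's method (here version 1.42.0), and limma-voom (limma 3.58.1) were alternatives, with those on scaling, filter, block, cohort and single samples. CPM were scaled by TMM. SE came from the F statistic. The procedure was checked on simulated data. Gene lengths came from GENCODE M21 (55141 of 55401 IDs matched) and windows before gene starts from RefSeq. No 2 of the 7 columns were identical. Same-numbered samples of the genotypes carried different mouse numbers.

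The text names all 9 members, their direct partners and regulators, the genes of each pathway list with an unadjusted P under 0.05 or else the highest and the lowest log2 fold change, and the 5 most similar genes. Of the genes this rule names, 2 are not reported here. The members and lists were chosen with earlier results of these data known. A planned correlation of the summed member level with marker lists is not given, because it would put a P on a score over chosen genes. The erythroid gene *Ahsp* was not analysed here.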

Additional observations from a re-analysis of the deposited data

Results flagged for a closer look

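Of 85 values examined in the 4 WT samples (the 9 genes, the pathway genes and the lists), 16 had 1 sample whose gap to its neighbor took up more of the group's range than Dixon's 95% limit for 4 samples allows, where chance gives about 1 in 20. None of the 9 genes was among them. The sample was WT replicate 1 in all 16, and it was low for all but *Vps33b*, where it was high. The gap as a share of the range was 0.953 for *Itga2*, 0.857 for *Fcer1g*, 0.836 for *Mpig6b*, 0.902 for *P2rx1*, 0.929 for *Tbxa2r*, 0.92 for *Vps33b*, 0.87 for *Rasa3*, 0.832 for *Plek*, 0.846 for *Bin2*, 0.839 for *Tuba4a* and 0.919 for *Fli1*. For the mean log2 CPM of lists it was 0.853 for adhesion receptors and partners, 0.847 for platelet signaling, 0.889 for the proplatelet cytoskeleton, 0.83 for mast cell and basophil markers and 0.899 for chondrocyte markers.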

How the results depend on the processing

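The 9 genes gave 0 calls, adjusted or unadjusted, under every alternative run, and their smallest adjusted P was 0.378. With 3 or 4 samples a group, the intervals of the 9 genes still include changes of the sizes given above. What size of change could have been detected was not tested. Of 144 log2 fold changes of the 9 genes under alternatives, 29 changed sign, none of them called. With scaling by library size alone, which moved the median of all genes to −0.067, *Ppbp* was at −0.00091, *Gp1ba* at −0.043, *Gp1bb* at −0.023 and *Treml1* at −0.048. Without the filter *Gp5* was at 0.0094 and *Gp6* at 0.0028. With mouse numbers in the 1300s only, *Gp1ba* was at −0.029, *Gp5* at 0.094 and *Gp6* at 0.037, and with number series as a covariate at −0.027, 0.095 and 0.038. Under both, which rest on the same WT samples, the median of the 9 went from 0.018 to 0.22. Leaving out 1 sample at a time gave −0.00085 to 0.31 for *Pf4*, −0.16 to 0.23 for *Ppbp*, −0.22 to 0.023 for *Itga2b*, −0.14 to 0.11 for *Gp1ba*, −0.084 to 0.11 for *Gp1bb*, −0.13 to 0.099 for *Gp5*, −0.0062 to 0.26 for *Gp9*, −0.11 to 0.082 for *Gp6* and −0.17 to 0.15 for *Treml1*. The causes were not tested. Called genes numbered 0 in all and 0 in the pathway lists by edgeR, 294 and 1 by DESeq2, 1 in all by limma-voom, and 0 to 52 in all with 1 sample left out, the 52 without WT replicate 1. Pathway genes at an unadjusted P under 0.05 were 3, 1 without the filter and 1 to 7 with 1 sample left out (7 without WT replicate 1, and 1 without *Trpc1*-/- replicate 3).

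The replicate numbers did not pair the samples: deviations of same-numbered samples correlated at −0.35, −0.20 and −0.044. The fit with the number as a block left out WT replicate 4, which has no same-numbered sample. In it 0 of the 9 genes and 0 of all genes were called, and the median log2 fold change of the 9 was 0.071. By edgeR 972 of 16303 genes then had an unadjusted P under 0.05. Without WT replicate 4 and without the block 1658 did, and 1643 of 16429 did with all 7 samples.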
